A study of Mus musculus with 14 samples.

Results

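The Wnt pathway was followed at the level of single genes in fibroblasts of the infarcted mouse heart, through its ligands, receptors, antagonists and targets. The set held 49 genes chosen by symbol, 47 of which had a row in the array table, out of 19494 genes tested. *Tcf7* and *Rnf43* were not analysed here. The study sorted GFP+ cardiac fibroblasts from tamoxifen-treated TCF21-MerCreMer;R26GFP mice with a C57BL/6 background and hybridized their RNA to 14 Clariom S Mouse arrays, which carry probe sets for well annotated genes. There were 3 arrays from the left ventricle of uninjured hearts, and arrays from the infarct area at 3 days (3 d, n = 3), 7 d (n = 3), 2 weeks (2 wk, n = 2) and 4 wk (n = 3) after myocardial infarction (MI), which was produced by permanent ligation of the left coronary artery. All groups carried both alleles and received tamoxifen, so that Cre driven from *Tcf21* marked the resident fibroblasts and their descendants, and cells without the GFP mark were outside the gate. The labels gave no age for these mice and described every replicate as biological. Values are log2 signals, in which 1 unit is a 2-fold difference, and errors are SD.

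Wnt proteins are secreted lipid-modified ligands. They bind Frizzled receptors together with Lrp5 or Lrp6 to stabilize beta-catenin, which switches on targets through TCF/LEF factors, or they act through Ror1, Ror2 and Ryk without beta-catenin. Secreted Frizzled-related proteins and Wif1 bind the ligands outside the cell, Dkk1 and Dkk2 act on the Lrp co-receptors, and Nkd1, Nkd2 and Axin2 dampen the signal inside it. In the heart the pathway is known for its reactivation after injury and for its part in fibroblast activation and scar formation.

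The fibroblast origin was borne out by 6 measured fibroblast markers, which were all above background in every group, with a summed signal of 19.06 to 19.74 on all arrays. The sum weighs the brightest marker, *Dcn*, most and does not show that single markers were stable. Between uninjured and 3 d cells the mean of *Tcf21* went from 13.18 to 10.84 and that of *Col1a2* from 11.65 to 13.94. Background was set at 5.89, the 95th percentile of the mean signals of 1410 olfactory and vomeronasal receptor genes. Of 7 measured macrophage markers, 6 were higher at 7 d than in uninjured cells, and their summed log2 signal was 12.64 to 14.95 at 7 d, against 8.70 to 9.09 on uninjured arrays. *Csf1r*, *Adgre1* and *C1qb* averaged below background in uninjured cells. The part of these markers in the 7 d results was not tested. The 5 arrays with replicate number 1 shared identical values in 21 table rows, 14 of them background controls, while the other 9 arrays had 0 such rows. *Uty* and *Kdm5d*, which lie on the Y chromosome, averaged below background on 4 arrays (7 d replicate 2, both 2 wk arrays and 4 wk replicate 1).

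Across the 5 groups, 14 of 47 members (29.8%) differed by the limma F test at an adjusted p under 0.05, against 15.4% of all genes tested. The members were chosen with earlier results of these data known. The shares set beside all genes therefore describe this set and do not test the pathway for an excess of changes. In total 17 members were called against uninjured cells at 1 or more times, and 30 at none. The share of all genes called at 1 or more times is not given here, so these counts cannot be set against it. At 3 d 2 members were higher and 5 lower than in uninjured cells (7 of 47, 14.9%), a share near the 12.5% of all genes called in that comparison (6.74% higher, 5.81% lower). At 7 d 9 were higher and 2 lower (23.4%, against 8.11% of all genes, 4.62% higher and 3.49% lower). At 2 wk 9 were higher and 1 lower (21.3%, against 2.48%, of which 1.3% higher and 1.18% lower), and at 4 wk 7 were higher and 2 lower (19.1%, against 1.91%, of which 0.995% higher and 0.913% lower). The median log2 difference of the 47 members from uninjured cells was -0.06 at 3 d, 0.19 at 7 d, 0.38 at 2 wk and 0.215 at 4 wk, where the median of all genes lay between -0.02 and 0.02. Because RNA came from sorted cells in bulk, fewer cells of a type and less RNA per cell cannot be told apart in any of these values. With the replicate number as a block the 3 d count was 11, through *Fzd6*, *Sfrp1* and *Dkk2* (higher) and *Lgr4* (lower). The share of all genes called at 3 d rose as well, to 19.1%. With a block for the 4 arrays low in *Uty* and *Kdm5d*, which include both 2 wk arrays, the count was 1 at 2 wk (*Sfrp2*) and 4 at 4 wk. Of all genes 0.544% were called at 2 wk and 1.31% at 4 wk with that block. Leaving out the arrays numbered 1 gave 13 called members at 3 d, where 17.2% of all genes were called. It ended the calls of *Sfrp2* at 3 d, *Lgr4* at 7 d, *Fzd1* at 2 wk and *Fzd6*, *Lrp5*, *Ror2* and *Frzb* at 4 wk.

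**Figure D1:**
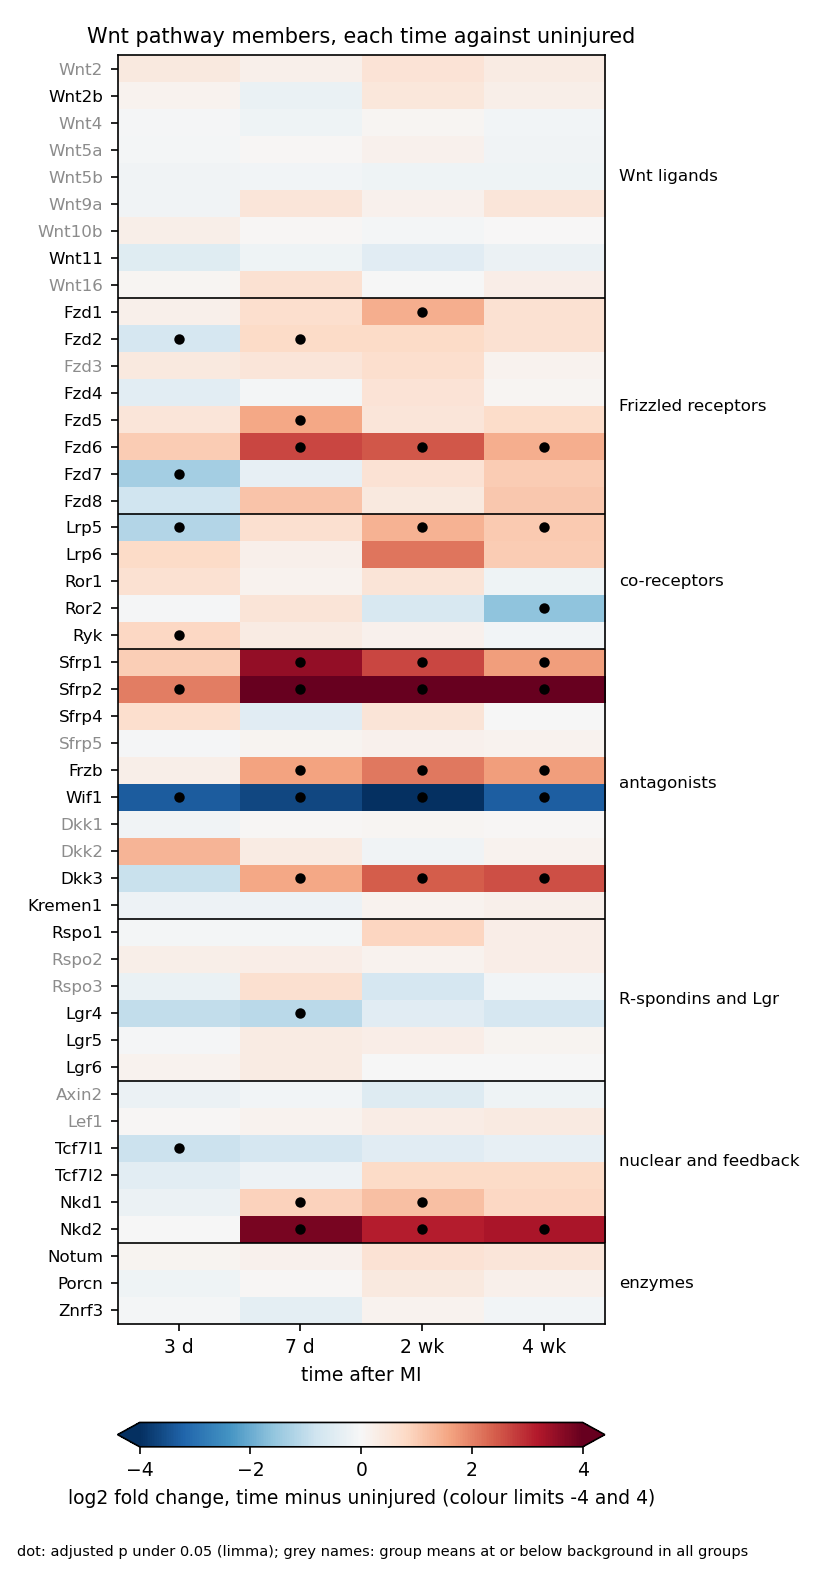
Heat map of the log2 fold change of the 47 measured Wnt pathway members (rows, by role) at 3 d, 7 d, 2 wk and 4 wk after MI against uninjured cells (columns), with a dot where limma's adjusted p was under 0.05 and grey names for the 15 members at or below background in every group mean. The dots gather in the antagonist rows, the Frizzled and co-receptor rows and the *Nkd* rows, with 1 each for *Lgr4* and *Tcf7l1*, and no ligand row holds one.

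Promoters are shown for 4 members on which the results turn, namely *Sfrp2* and *Wif1*, which were called at all 4 times in opposite directions, *Nkd2*, the feedback gene with the largest change, and *Fzd7*, the one member called in any comparison whose window, where one was found, held a TCF/LEF motif. RefSeq promoter windows (GRCm38.p6, 250 bases before to 50 after the annotated start) were found for 30 of the 47 members. They lie at chr3:83766071-83766370 on the + strand for *Sfrp2*, chr10:121033754-121034053 on the + strand for *Wif1*, chr13:73847582-73847881 on the - strand for *Nkd2* and chr1:59481897-59482196 on the + strand for *Fzd7*. Each is written 5′ to 3′ on the strand of its gene, with capitals marking the motif.
Sfrp2: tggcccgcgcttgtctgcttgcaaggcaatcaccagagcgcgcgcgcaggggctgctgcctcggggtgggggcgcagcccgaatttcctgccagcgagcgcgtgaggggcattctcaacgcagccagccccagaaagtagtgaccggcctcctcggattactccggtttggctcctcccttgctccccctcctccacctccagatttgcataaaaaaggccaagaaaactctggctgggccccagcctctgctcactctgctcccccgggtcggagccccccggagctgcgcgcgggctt
Wif1: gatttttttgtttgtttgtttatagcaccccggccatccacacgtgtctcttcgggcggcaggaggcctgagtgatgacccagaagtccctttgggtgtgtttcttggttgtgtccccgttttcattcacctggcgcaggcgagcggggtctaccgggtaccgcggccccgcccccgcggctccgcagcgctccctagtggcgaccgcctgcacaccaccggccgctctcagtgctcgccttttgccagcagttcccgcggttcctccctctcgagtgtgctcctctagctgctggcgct
Nkd2: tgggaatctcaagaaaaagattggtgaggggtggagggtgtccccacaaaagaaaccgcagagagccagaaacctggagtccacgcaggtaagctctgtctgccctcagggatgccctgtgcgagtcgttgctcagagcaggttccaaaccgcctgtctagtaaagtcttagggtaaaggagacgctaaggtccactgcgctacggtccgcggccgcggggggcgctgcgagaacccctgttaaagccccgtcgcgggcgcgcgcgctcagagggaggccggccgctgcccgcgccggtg
Fzd7: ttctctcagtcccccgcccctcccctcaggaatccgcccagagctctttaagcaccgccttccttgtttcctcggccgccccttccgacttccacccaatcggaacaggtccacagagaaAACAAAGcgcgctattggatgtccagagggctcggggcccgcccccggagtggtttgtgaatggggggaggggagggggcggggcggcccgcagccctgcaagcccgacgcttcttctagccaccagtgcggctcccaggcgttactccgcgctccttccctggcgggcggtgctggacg
The TCF/LEF motifs searched, on both strands, were the letters CTTTGAT, the same with a final A (CTTTGAA), and the forms ending in TT (written CTTTGTT) or in TA (written CTTTGTA), which cannot match the same bases of 1 strand together. They occurred in 16.9% of 32841 promoter windows of this length and in 6 of the 37 windows of members (16.2%). Those 6 belonged to *Dkk1*, *Fzd7*, *Lef1*, *Tcf7l2*, *Wnt11* and *Wnt5b*. The *Fzd7* match was CTTTGTT on the - strand at position -130 from the start, and the other 3 printed windows held none of these letters.

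Ligands were low and did not pass the test in any of the 9 comparisons between 2 groups when all arrays were fitted without a block. Of 9 measured Wnt genes, 7 lay at or below background in every group mean (*Wnt2*, *Wnt4*, *Wnt5a*, *Wnt5b*, *Wnt9a*, *Wnt10b* and *Wnt16*), and 2 lay above it in every group. These were *Wnt11*, a ligand known mainly for signalling without beta-catenin, and *Wnt2b*, a ligand of the beta-catenin branch. *Wnt11* had signals of 6.84, 7.22 and 7.51 on the uninjured arrays, 7.05, 6.50 and 6.58 at 3 d, 6.60, 7.45 and 7.02 at 7 d, 6.60 and 6.86 at 2 wk and 6.32, 7.24 and 7.31 at 4 wk. The groups overlapped at every time, with differences from uninjured cells of -0.48, -0.17, -0.46 and -0.23 at 3 d, 7 d, 2 wk and 4 wk. Without the arrays numbered 1, *Wnt11* was lower at 3 d than in uninjured cells (-0.83, adjusted p = 0.0312). *Wnt16* showed the widest difference from uninjured cells of any ligand, 0.60 higher at 7 d (adjusted p = 0.095). Among the 9 ligands 1 passed an unadjusted p under 0.05 at 7 d, 1 at 2 wk and 0 at 3 d and 4 wk, by limma. Of all 19494 genes 4472, 3414, 2336 and 1710 did at 3 d, 7 d, 2 wk and 4 wk. The adjusted p of *Wnt9a* in 4 wk against 3 d cells was 0.124 without the replicate block and 0.0385 with it, at group means below background.

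The antagonists, secreted proteins and the surface protein Kremen1, held the widest changes of the set. Of 10 measured genes, *Sfrp1*, *Sfrp2*, *Frzb* and *Dkk3* were higher and *Wif1* was lower than in uninjured cells at each of 7 d, 2 wk and 4 wk, and *Sfrp2* and *Wif1* had moved in those directions by 3 d. *Sfrp2*, a secreted Frizzled-related protein that binds Wnt ligands, had signals of 6.70, 8.23 and 8.03 on the uninjured arrays, 10.02, 10.04 and 9.05 at 3 d, 13.08, 10.90 and 13.17 at 7 d, 14.25 and 13.95 at 2 wk and 13.55, 12.04 and 11.88 at 4 wk. Every array after MI was above the highest uninjured array, and the 2 wk arrays stood highest. Relative to uninjured cells *Sfrp2* was higher by 2.05 at 3 d (SE 0.61, adjusted p = 0.0416), 4.73 at 7 d (SE 0.61, adjusted p = 0.000215), 6.45 at 2 wk (SE 0.682, adjusted p = 0.000149) and 4.84 at 4 wk (SE 0.61, adjusted p = 0.000648), the last 3 being 26.5-fold, 87.1-fold and 28.6-fold. In cells at 7 d *Sfrp2* was 2.68 higher than at 3 d (adjusted p = 0.017). Without 7 d replicate 2, the lowest array of its group, *Sfrp2* at 7 d was 5.47 higher than in uninjured cells and 3.42 higher than at 3 d. Without the arrays numbered 1 the differences from uninjured cells were 3.90 at 7 d, 5.82 at 2 wk and 3.83 at 4 wk, all still called. The 3 d call was kept only in the leave-one-out fits without 3 d replicate 3, any 7 d array, or 4 wk replicate 1 or 3, and it was lost in the other 8 (adjusted p up to 0.14), as well as without the arrays numbered 1 (log2 difference 1.42, adjusted p = 0.136). The call at 7 d against 3 d was lost without 3 d replicate 3 or without 7 d replicate 1 or 3 (adjusted p up to 0.0921).

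*Sfrp1*, a close relative that also binds Wnts and Frizzleds, had signals of 8.78, 8.21 and 8.01 on the uninjured arrays, 9.74, 9.12 and 9.14 at 3 d, 12.02, 11.48 and 12.09 at 7 d, 11.06 and 10.92 at 2 wk and 10.75, 9.57 and 9.71 at 4 wk. Its arrays at 7 d were above those of all other groups, and at 2 and 4 wk all arrays remained above the uninjured ones. *Sfrp1* exceeded its uninjured signal by 3.53 at 7 d (11.5-fold, SE 0.322, adjusted p = 1.23e-05), 2.66 at 2 wk (SE 0.36, adjusted p = 0.000968) and 1.68 at 4 wk (SE 0.322, adjusted p = 0.014). At 3 d it was 0.998, with an adjusted p of 0.0604 that was 0.00678 with the replicate block. Cells at 4 wk had a lower signal than cells at 7 d, by a log2 difference of -1.85 (SE 0.322, adjusted p = 0.0044). The 4 wk call against uninjured cells was lost without uninjured replicate 2 or 3 (adjusted p up to 0.0736).

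*Frzb*, also known as Sfrp3 and first described in cartilage, had signals of 13.71, 13.30 and 12.73 on the uninjured arrays, 13.59, 12.89 and 13.91 at 3 d, 14.80, 14.66 and 15.10 at 7 d, 15.42 and 15.29 at 2 wk and 15.85, 14.37 and 14.51 at 4 wk. All arrays from 7 d on were above the uninjured ones, whereas the 3 d arrays overlapped them. Against uninjured cells *Frzb* was higher by 1.61 at 7 d (SE 0.381, adjusted p = 0.0169), 2.11 at 2 wk (SE 0.426, adjusted p = 0.016) and 1.67 at 4 wk (SE 0.381, adjusted p = 0.0394). These calls were sensitive to single arrays. The 4 wk call was kept only without uninjured replicate 1, 3 d replicate 2 or 3, or 4 wk replicate 2, and lost in 10 of 14 fits (adjusted p up to 0.186). Without uninjured replicate 2 or 3, or 7 d replicate 3, the 7 d call was lost (adjusted p up to 0.0815), and without uninjured replicate 2 or 3 or either 2 wk array the 2 wk call was lost (adjusted p up to 0.164).

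*Dkk3*, a divergent member of the Dickkopf family, had signals of 11.67, 13.16 and 12.80 on the uninjured arrays, 11.78, 11.43 and 11.71 at 3 d, 14.10, 14.12 and 14.04 at 7 d, 15.02 and 14.94 at 2 wk and 15.51, 15.02 and 14.80 at 4 wk. At 7 d, 2 wk and 4 wk every array was above the highest uninjured array, and the 2 and 4 wk arrays were above all 7 d ones. The excess of *Dkk3* over uninjured cells was 1.54 at 7 d (SE 0.316, adjusted p = 0.00668), 2.43 at 2 wk (SE 0.353, adjusted p = 0.00158) and 2.57 at 4 wk (5.92-fold, SE 0.316, adjusted p = 0.000537). At 3 d the difference was -0.91 (adjusted p = 0.0842), and without the arrays numbered 1 it was -1.41 (adjusted p = 0.00185). Without those arrays it was 1.93 at 4 wk (adjusted p = 0.00169). No leave-one-out fit ended a *Dkk3* call at 7 d, 2 wk or 4 wk. The 2 wk call was lost with the block for arrays low in *Uty* and *Kdm5d*.

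*Wif1*, a secreted protein that binds Wnt ligands directly, had signals of 7.88, 11.23 and 11.21 on the uninjured arrays, 7.79, 6.15 and 6.39 at 3 d, 6.10, 7.19 and 6.11 at 7 d, 4.89 and 5.17 at 2 wk and 5.73, 7.10 and 7.63 at 4 wk. Uninjured replicate 1 stood well below the other uninjured arrays, and the 3 d array of the same number, at 7.79, was close to it. All arrays after MI were nevertheless below all uninjured arrays, and both 2 wk arrays were below background. The difference from uninjured cells was -3.33 at 3 d (SE 0.777, adjusted p = 0.0107), -3.64 at 7 d (SE 0.777, adjusted p = 0.00889) and -3.28 at 4 wk (SE 0.777, adjusted p = 0.0483). At 2 wk the signal was at least 18.6-fold lower than in uninjured cells (adjusted p = 0.00538), with background standing in for the 2 wk arrays. Without uninjured replicate 1 the difference was -4.44 at 3 d, -4.75 at 7 d, -6.19 at 2 wk and -4.40 at 4 wk, more than 1.5 times the fold with it, and the 2 wk bound includes that array. The 4 wk call was kept only without uninjured replicate 1 or 3 d replicate 1 and was lost in 12 of 14 fits (adjusted p up to 0.239). The 3 d call was lost without uninjured replicate 2 or 3 or 3 d replicate 2 (adjusted p up to 0.0606), the 7 d call without uninjured replicate 2 (adjusted p = 0.0518), and the 2 wk call without either 2 wk array (adjusted p up to 0.0769).

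Among the uninjured arrays, summed endothelial and cardiomyocyte markers were lowest on the same array as *Wif1*, replicate 1. The low sums there were general, since those of macrophage, pericyte and smooth muscle, Schwann, epicardium and mesothelium, and lymphocyte markers were also lowest. Only the fibroblast sum was highest on that array. The summed log2 signal of 6 endothelial genes was 10.24, 12.20 and 11.88 on uninjured arrays 1, 2 and 3, and ranged over 8.57 to 9.70 at 3 d, 10.65 to 12.08 at 7 d, 8.94 to 12.85 at 2 wk and 9.01 to 11.13 at 4 wk. That of 5 cardiomyocyte genes was 9.26, 10.65 and 10.34 on the uninjured arrays, and ranged over 8.44 to 9.03 at 3 d, 8.94 to 9.38 at 7 d, 8.79 to 9.77 at 2 wk and 9.01 to 9.94 at 4 wk. Against uninjured cells 1 of the 6 endothelial genes was lower at 3 d, and 1 of the 5 cardiomyocyte genes was lower at 3 d and at 7 d. Their part in the *Wif1* result was not tested.

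The remaining antagonists did not pass the test in any comparison with all arrays and no block. *Sfrp4* (group means 7.91 to 9.01) and *Kremen1*, a surface partner of the Dickkopf proteins (10.69 to 11.12), were above background in every group, and *Sfrp5*, *Dkk1* and *Dkk2* were below it in every group mean. *Dkk2* had 4.88, 6.63 and 5.38 at 3 d, against 3.93, 4.24 and 4.62 in uninjured cells, with 1 array above background, and its adjusted p of 0.069 was 0.00248 with the replicate block and 0.0192 without the arrays numbered 1. *Kremen1* was called without those arrays, 0.76 higher at 4 wk than at 3 d (adjusted p = 0.039), and in the same comparison without 4 wk replicate 1 alone.

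**Figure D2:**
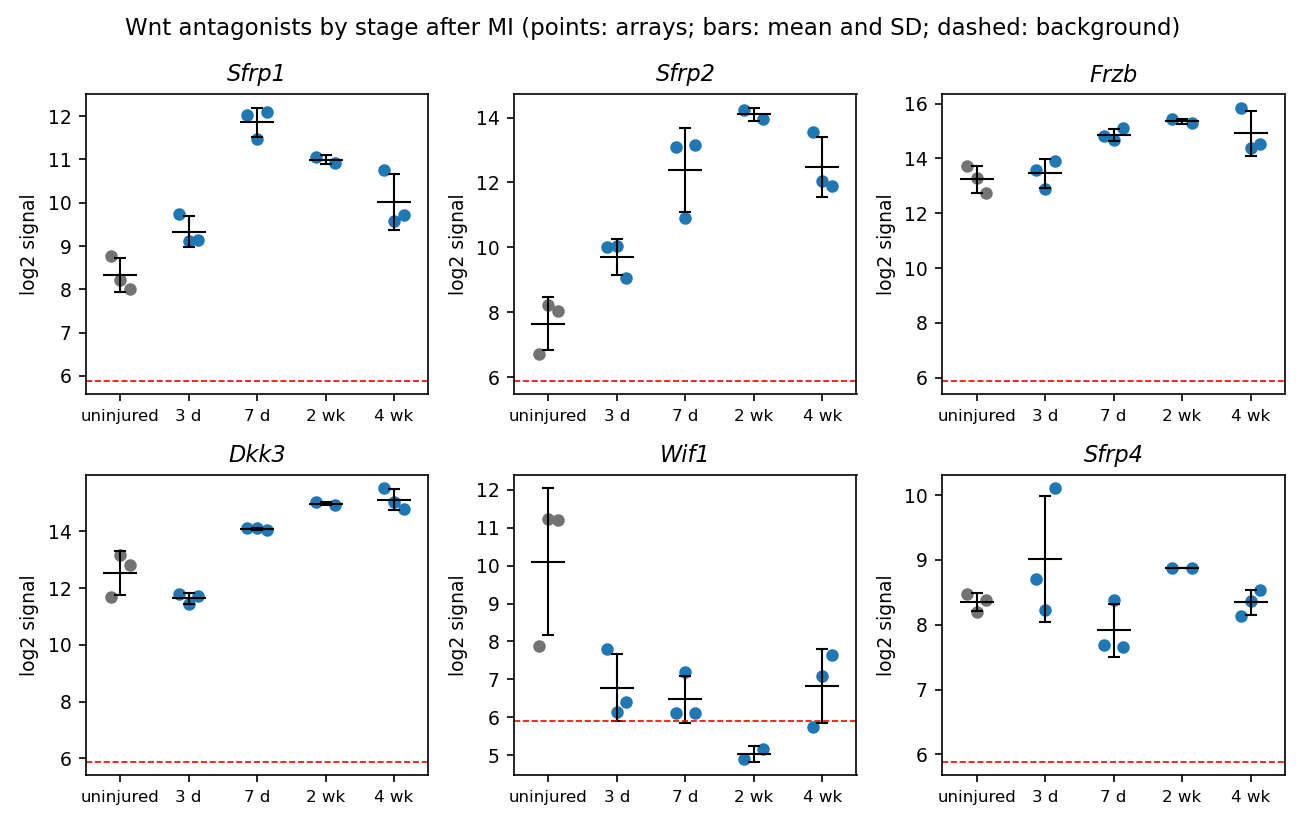
Log2 signal (vertical axis) of 6 antagonists on each array (points) with group mean and SD (bars), in uninjured cells (grey) and at 3 d, 7 d, 2 wk and 4 wk after MI (blue), with background as a dashed line. *Sfrp1*, *Sfrp2*, *Frzb* and *Dkk3* points from 7 d on lie above all uninjured points, *Wif1* points lie below them, and *Sfrp4* points overlap them.

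Among 8 measured Frizzled genes, which encode the main Wnt receptors, 5 were called against uninjured cells at 1 or more times and *Fzd8*, with all arrays in the fit, only between times after MI. As above, no share over all genes is given for the count at 1 or more times. *Fzd6*, a receptor with a role in planar cell polarity, had signals of 5.84, 6.87 and 6.82 on the uninjured arrays, 7.75, 7.35 and 7.44 at 3 d, 9.47, 8.63 and 9.42 at 7 d, 9.16 and 8.81 at 2 wk and 8.46, 7.45 and 8.01 at 4 wk. The 7 d and 2 wk arrays were all above 8.6, and uninjured replicate 1 was below background. *Fzd6* exceeded its uninjured signal by 2.66 at 7 d (6.31-fold, SE 0.333, adjusted p = 0.000172), 2.47 at 2 wk (SE 0.372, adjusted p = 0.00215) and 1.46 at 4 wk (SE 0.333, adjusted p = 0.0391). At 3 d the group mean was 7.52, against 6.51 in uninjured cells, with an adjusted p of 0.0687 that was 0.0392 with the replicate block. The 4 wk call was kept only without 3 d replicate 1, 7 d replicate 1 or 2, or 4 wk replicate 2, and was lost in 10 of 14 fits (adjusted p up to 0.165).

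*Fzd2* and *Fzd7*, both Wnt receptors linked to signalling with and without beta-catenin, were lower at 3 d. *Fzd7* had signals of 10.45, 10.24 and 10.28 on the uninjured arrays, 9.28, 9.13 and 8.50 at 3 d, 10.13, 9.68 and 10.21 at 7 d, 10.88 and 10.95 at 2 wk and 11.68, 11.03 and 11.30 at 4 wk. The 3 d arrays were below those of every other group, and the 2 and 4 wk arrays were above all others. *Fzd7* was -1.35 at 3 d relative to uninjured cells (SE 0.244, adjusted p = 0.00186). It was 1.33 higher at 4 wk than at 7 d (SE 0.244, adjusted p = 0.00614), and 1.01 higher than in uninjured cells (adjusted p = 0.0536, or 0.0208 with the replicate block). Its promoter was the one printed above with a TCF/LEF motif.

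*Fzd2* had signals of 13.74, 14.12 and 13.94 on the uninjured arrays, 13.16, 13.39 and 13.28 at 3 d, 14.36, 14.77 and 14.96 at 7 d, 14.72 and 14.67 at 2 wk and 14.59, 14.43 and 14.59 at 4 wk. The 3 d arrays lay below, and all later arrays above, every uninjured array. *Fzd2* was -0.66 at 3 d relative to uninjured cells (SE 0.195, adjusted p = 0.0416) and 0.77 at 7 d (SE 0.195, adjusted p = 0.0261). At 2 wk the difference of 0.76 had an adjusted p of 0.101, which was 0.0403 with the replicate block. The 3 d call was kept only without uninjured replicate 1, 7 d replicate 1 or 3, or 4 wk replicate 1, and the 7 d call was lost without uninjured replicate 1 or 3 or 7 d replicate 2 or 3 (adjusted p up to 0.158 and 0.13). The step between 3 and 7 d, 1.42 (adjusted p = 0.000875), was kept in every leave-one-out fit.

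*Fzd1* was called only at 2 wk and *Fzd5* only at 7 d. *Fzd1*, a receptor of the beta-catenin branch, had signals of 11.34, 11.59 and 11.54 on the uninjured arrays, 12.30, 11.38 and 11.38 at 3 d, 12.51, 11.56 and 12.37 at 7 d, 13.06 and 12.80 at 2 wk and 12.53, 11.81 and 11.98 at 4 wk. The 2 wk arrays were above all others, by 1.44 relative to uninjured cells (SE 0.342, adjusted p = 0.0407), a call kept only without 3 d replicate 1 or 2, 7 d replicate 1 or 2, or 4 wk replicate 1. The 9 fits that lost it reached an adjusted p of 0.329. *Fzd5*, a receptor known from vessel and eye development, had signals of 7.36, 7.47 and 8.34 on the uninjured arrays, 7.81, 8.18 and 8.62 at 3 d, 8.34, 9.22 and 10.23 at 7 d, 7.99 and 8.45 at 2 wk and 8.11, 8.66 and 8.60 at 4 wk. The lowest 7 d array and the highest uninjured array were both at 8.34 to this precision. The 7 d difference was 1.54 (SE 0.411, adjusted p = 0.0329), and it was lost without uninjured replicate 1 or 2 or 7 d replicate 2 or 3 (adjusted p up to 0.151). *Fzd5* was 1.06 higher at 7 d than at 3 d, with an adjusted p of 0.174 that was 0.0113 with the block.

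*Fzd8*, a receptor of the beta-catenin branch, had signals of 9.55, 10.93 and 10.85 on the uninjured arrays, 9.69, 9.74 and 9.56 at 3 d, 11.19, 11.40 and 12.22 at 7 d, 10.84 and 10.82 at 2 wk and 12.20, 10.93 and 11.45 at 4 wk. Signals at 3 d were below all later ones, while uninjured replicate 1 was as low as the 3 d arrays. Against 3 d cells *Fzd8* was 1.94 higher at 7 d (SE 0.39, adjusted p = 0.00872) and 1.87 higher at 4 wk (SE 0.39, adjusted p = 0.00538), the first of which was lost without 7 d replicate 3 (adjusted p = 0.0515). Without the arrays numbered 1, *Fzd8* was also lower at 3 d than in uninjured cells (-1.24, adjusted p = 0.0148). *Fzd4*, known as the receptor for norrin, was above background in every group and *Fzd3* in none, and neither passed the test in any comparison.

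The co-receptors divided by gene. *Lrp5*, which pairs with Frizzleds in the beta-catenin branch, had signals of 12.28, 12.45 and 12.22 on the uninjured arrays, 11.43, 10.78 and 11.23 at 3 d, 13.26, 12.55 and 13.04 at 7 d, 13.69 and 13.71 at 2 wk and 13.70, 13.13 and 13.26 at 4 wk. At 3 d all arrays were below the uninjured ones, and all later arrays were above them. *Lrp5* was -1.17 at 3 d relative to uninjured cells (SE 0.238, adjusted p = 0.00441), 1.39 at 2 wk (SE 0.266, adjusted p = 0.0116) and 1.05 at 4 wk (SE 0.238, adjusted p = 0.0379). The 2 wk call was lost without either 2 wk array (adjusted p up to 0.124), and the 4 wk call was kept only without 3 d replicate 1 or 2 or 7 d replicate 1 or 2 (adjusted p up to 0.165).

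*Lrp6*, its closest relative, did not pass the test. Its signals were 12.49, 10.21 and 9.68 on the uninjured arrays, 11.88, 11.05 and 11.77 at 3 d, 11.93, 9.80 and 11.27 at 7 d, 13.19 and 12.66 at 2 wk and 12.87, 11.54 and 11.04 at 4 wk. Uninjured replicate 1 stood far above the other uninjured arrays, and both 2 wk arrays were above all 3. The 2 wk difference was 2.13 (adjusted p = 0.234), and without the arrays numbered 1 it was 2.71 (adjusted p = 0.0188), with 1.46 at 3 d (adjusted p = 0.0447).

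*Ror2*, a receptor for Wnt5a that signals without beta-catenin, had signals of 8.29, 8.20 and 8.66 on the uninjured arrays, 8.72, 7.84 and 8.45 at 3 d, 9.08, 9.10 and 8.57 at 7 d, 7.89 and 7.60 at 2 wk and 5.99, 7.46 and 6.89 at 4 wk. The 4 wk arrays were below all arrays from uninjured, 3 d, 7 d and 2 wk cells. *Ror2* was -1.60 at 4 wk relative to uninjured cells (SE 0.338, adjusted p = 0.025), -2.13 relative to 7 d (SE 0.338, adjusted p = 0.0023) and -1.55 relative to 3 d (adjusted p = 0.00707). Against uninjured cells the call was lost without any 1 of the 3 uninjured arrays or without 4 wk replicate 1 or 3 (adjusted p up to 0.113), and without the arrays numbered 1 it was -1.25 (adjusted p = 0.0708).

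*Ryk*, a Wnt receptor with an inactive kinase domain, had signals of 15.19, 15.18 and 15.08 on the uninjured arrays, 15.60, 16.03 and 16.29 at 3 d, 15.48, 15.54 and 15.40 at 7 d, 15.22 and 15.40 at 2 wk and 15.21, 14.95 and 14.99 at 4 wk. The 3 d arrays were above all others. *Ryk* was 0.82 at 3 d relative to uninjured cells (SE 0.197, adjusted p = 0.0125, lost without 3 d replicate 3 at 0.0584), and at 4 wk it was -0.92 relative to 3 d (SE 0.197, adjusted p = 0.00619). *Ror1* was above background in every group mean and passed in no comparison with all arrays, but without those numbered 1 it was 0.88 higher at 3 d than in uninjured cells (adjusted p = 0.0376).

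**Figure D3:**
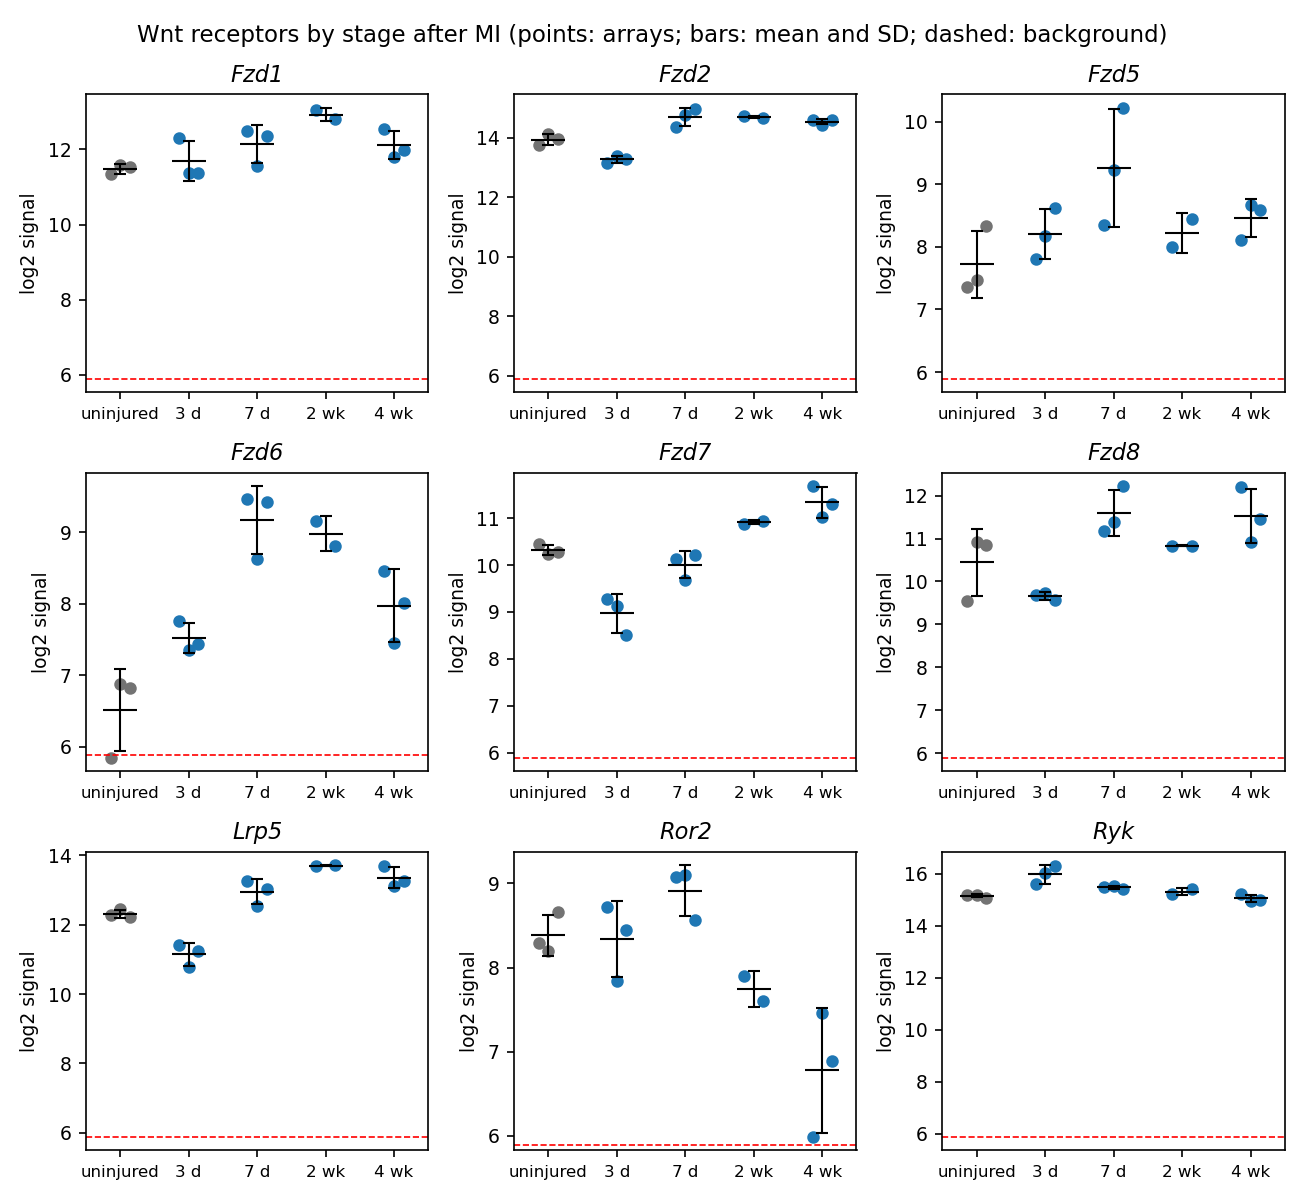
Log2 signal (vertical axis) of 6 Frizzled genes, *Lrp5*, *Ror2* and *Ryk* on each array (points) with group mean and SD (bars), in uninjured cells (grey) and at 3 d, 7 d, 2 wk and 4 wk after MI (blue), with background as a dashed line. *Fzd2*, *Fzd7* and *Lrp5* points dip at 3 d and lie at or above the uninjured points at 2 and 4 wk, *Fzd6* peaks at 7 d, and *Ror2* is lowest at 4 wk.

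Of the R-spondins, which strengthen Wnt signals through Lgr receptors, none passed the test with all arrays, and *Rspo2* and *Rspo3* were below background in every group mean. Without the arrays numbered 1 *Rspo3* was 1.49 higher at 7 d than at 3 d (adjusted p = 0.0326). *Lgr4*, an R-spondin receptor, had signals of 9.38, 8.93 and 8.69 on the uninjured arrays, 7.49, 7.80 and 8.74 at 3 d, 8.18, 7.98 and 7.62 at 7 d, 8.52 and 8.58 at 2 wk and 8.68, 8.07 and 8.25 at 4 wk. All 7 d arrays were below all uninjured arrays, and the difference was -1.07 (SE 0.307, adjusted p = 0.0477). The call was kept only without 3 d replicate 1 or 3 or 4 wk replicate 1 and was lost in 11 of 14 fits (adjusted p up to 0.195). At 3 d *Lgr4* was -0.99, with an adjusted p of 0.0513 that was 0.0389 with the replicate block. *Lgr5*, *Lgr6* and *Rspo1* passed in no comparison, their group means reaching 6.52, 5.97 and 6.82 at most.

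Among the nuclear and feedback genes *Nkd1*, *Nkd2* and *Tcf7l1* were called against uninjured cells. *Nkd2*, a cytoplasmic antagonist that binds Dishevelled, had signals of 9.64, 9.07 and 9.76 on the uninjured arrays, 9.60, 9.12 and 9.70 at 3 d, 13.11, 13.88 and 12.86 at 7 d, 12.79 and 12.46 at 2 wk and 13.81, 12.10 and 12.39 at 4 wk. The 3 d arrays lay within the uninjured range and every later array was above 12. The difference from uninjured cells was -0.02 at 3 d, 3.79 at 7 d (13.9-fold, SE 0.398, adjusted p = 3.9e-05), 3.13 at 2 wk (SE 0.445, adjusted p = 0.00135) and 3.28 at 4 wk (9.69-fold, SE 0.398, adjusted p = 0.000496). No leave-one-out fit ended these 3 calls, but the 2 wk call was lost with the block for arrays low in *Uty* and *Kdm5d*.

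*Nkd1*, its paralog and a known beta-catenin target, had signals of 7.22, 7.44 and 7.68 on the uninjured arrays, 7.64, 7.13 and 6.87 at 3 d, 8.27, 8.40 and 8.45 at 7 d, 8.56 and 8.72 at 2 wk and 8.18, 8.33 and 8.35 at 4 wk. All arrays from 7 d on were above 8.1 and the uninjured and 3 d arrays were all below 7.7. *Nkd1* exceeded its uninjured signal by 0.93 at 7 d (SE 0.214, adjusted p = 0.0145), 1.19 at 2 wk (SE 0.239, adjusted p = 0.0153) and 0.84 at 4 wk (adjusted p = 0.0716, or 0.0484 with the replicate block). The 7 d call was lost without uninjured replicate 1 or 7 d replicate 2 or 3 (adjusted p up to 0.0598), and the 2 wk call without uninjured replicate 2 or either 2 wk array (adjusted p up to 0.179).

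*Axin2*, a scaffold of the destruction complex and the most widely used readout of beta-catenin signalling, was below background on all 14 arrays. Its group means were 4.93, 4.69, 4.82, 4.42 and 4.74 in uninjured, 3 d, 7 d, 2 wk and 4 wk cells, and no comparison passed the test. *Lef1*, a TCF/LEF factor that is itself a target, was also below background on all arrays. *Tcf7l1*, a TCF factor that mostly represses targets, had signals of 8.72, 8.76 and 9.11 on the uninjured arrays, 7.84, 8.001 and 8.14 at 3 d, 7.98, 8.13 and 8.49 at 7 d, 8.35 and 8.47 at 2 wk and 8.19, 8.76 and 8.64 at 4 wk. The 3 d arrays were below all uninjured arrays, by -0.87 (SE 0.214, adjusted p = 0.0148), a call lost without uninjured replicate 3 or 3 d replicate 1 (adjusted p up to 0.0724). At 7 d it was -0.66, with an adjusted p of 0.0829 that was 0.0155 with the replicate block. *Tcf7l2*, the main TCF factor of many tissues, was not called with all arrays and no block. With the replicate block it was called as 0.98 higher at 4 wk than at 7 d and 1.20 higher at 4 wk than at 3 d (adjusted p = 0.409 and 0.154 without it, 0.0221 and 0.00289 with it). Leaving out the arrays numbered 1 also gave a call for 4 wk against 3 d.

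**Figure D4:**
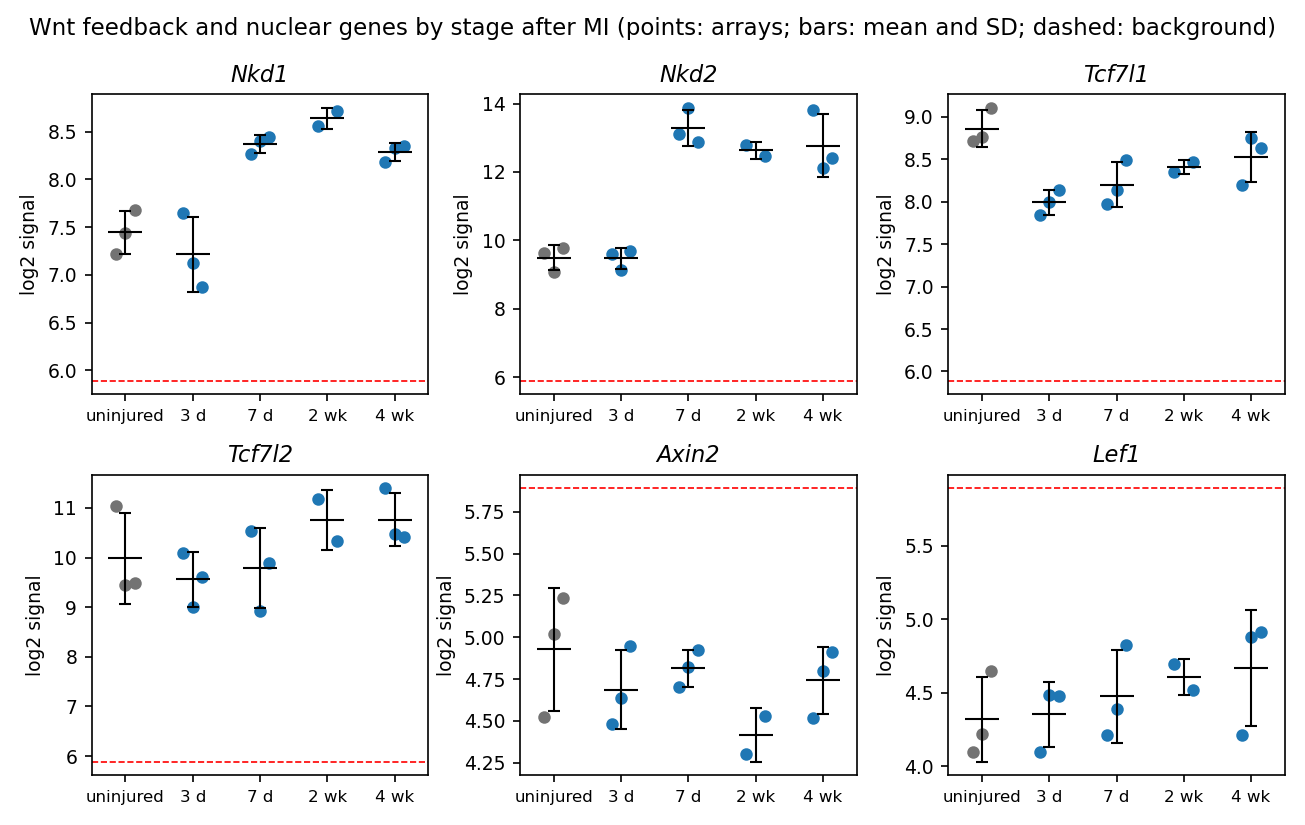
Log2 signal (vertical axis) of 6 feedback and nuclear genes on each array (points) with group mean and SD (bars), in uninjured cells (grey) and at 3 d, 7 d, 2 wk and 4 wk after MI (blue), with background as a dashed line. *Nkd1* and *Nkd2* points step up between 3 and 7 d, while all *Axin2* and *Lef1* points lie under the dashed line.

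None of the 3 measured enzymes was called. *Porcn*, which attaches the lipid that Wnts need for export, had signals of 9.44, 8.93 and 8.92 on the uninjured arrays, 9.16, 8.84 and 8.80 at 3 d, 9.55, 8.84 and 9.01 at 7 d, 9.54 and 9.42 at 2 wk and 9.56, 9.32 and 8.998 at 4 wk. Each group after MI overlapped the uninjured range. *Notum*, which removes that lipid, and *Znrf3*, a ubiquitin ligase that clears Frizzleds from the surface, averaged 6.00 to 6.57 and 8.01 to 8.55 over the groups.

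Between times after MI, members were called at 7 d and 4 wk against 3 d and at 4 wk against 7 d. Cells at 2 wk were not compared with those at 3 d. At 7 d 11 of 47 members were higher than at 3 d and 0 lower (23.4%, against 6.48% of all genes, 3.34% higher and 3.14% lower), namely *Fzd2*, *Fzd6*, *Fzd7*, *Fzd8*, *Lrp5*, *Sfrp1*, *Sfrp2*, *Frzb*, *Dkk3*, *Nkd1* and *Nkd2*. The largest was *Nkd2*, at 3.81 (14.03-fold, SE 0.398, adjusted p = 0.000154). *Frzb* was 1.39 higher (adjusted p = 0.0453), a call kept only without uninjured replicate 1 or 3, 3 d replicate 3, or 4 wk replicate 1 or 2 (adjusted p up to 0.194), and *Fzd7* 1.04 higher (adjusted p = 0.0202), a call lost without 3 d replicate 3 or 7 d replicate 1 or 3 (adjusted p up to 0.098). In none of these 11 did the 3 and 7 d arrays overlap. The 11 were picked by this same comparison and no share over all genes is given, so this is no further support.

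From 7 d to 2 wk 0 members passed the limma test (1.59% of all genes did, 0.4% higher and 1.19% lower). An unadjusted p under 0.05 was reached there by 15 of 47 members and by 2694 of 19494 genes. From 2 to 4 wk 0 passed (0.0256% of all genes, 0.0103% higher and 0.0154% lower). In that step 5 of 47 members had an unadjusted p under 0.05, as did 949 of 19494 genes. Cells at 4 wk against 7 d gave 1 higher member, *Fzd7*, and 2 lower ones, *Ror2* and *Sfrp1* (6.38%, against 4.36% of all genes, 1.57% higher and 2.79% lower). With the replicate block the count was 5 (7.99% of all genes were called), through *Fzd6* (-1.20, adjusted p = 0.0334) and *Tcf7l2* (0.98, adjusted p = 0.0221). Cells at 4 wk against 3 d gave 9 higher members (*Fzd2*, *Fzd7*, *Fzd8*, *Lrp5*, *Sfrp2*, *Frzb*, *Dkk3*, *Nkd1* and *Nkd2*) and 2 lower ones, *Ror2* and *Ryk* (23.4%, against 12.7% of all genes, 5.85% higher and 6.86% lower). The largest was *Dkk3*, at 3.47 (11.1-fold, SE 0.316, adjusted p = 1.07e-05), and *Frzb* lost its call without 3 d replicate 1 or 2 or 4 wk replicate 1 (adjusted p up to 0.111). Leaving out the arrays numbered 1 ended the calls of *Frzb* (1.04, adjusted p = 0.0656) and *Ror2* (-0.97, adjusted p = 0.0621) in this comparison.

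A further 62 measured genes of the wider pathway were counted for context. Against uninjured cells 3 were higher and 4 lower at 3 d (12.5% of all genes were called), 5 higher and 4 lower at 7 d (8.11% of all genes), 1 higher and 0 lower at 2 wk (2.48%), and 1 higher and 0 lower at 4 wk (1.91%). At 3 d, 2 wk and 4 wk this was no larger a share than among all genes. The 10 other Wnt ligands gave 0 calls in all comparisons by limma, with 1 unadjusted p under 0.05 over the 9 comparisons. The 1 gene called at all 4 times was *Cd44*, a hyaluronan receptor often listed as a beta-catenin target, which averaged 11.99 ± 0.541 at 3 d and 7.59 ± 0.21 in uninjured cells (SD, n = 3 each; 21.2-fold higher, adjusted p = 3.78e-07). *Ptk7*, a receptor-like protein of planar polarity, averaged 7.53 ± 0.627 at 4 wk and 10.07 ± 0.731 at 7 d (adjusted p = 0.00213), and was also lower at 2 wk than at 7 d. Against uninjured cells *Ptk7* was higher at 3 d and 7 d and was not called at 2 or 4 wk. *Wls*, which carries Wnts to the cell surface, averaged 13.53 ± 0.158 at 7 d and 12.47 ± 0.145 in uninjured cells (adjusted p = 0.00291).

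Of 9 nuclear cofactors in the wider list, 2 were lower at 3 d, 1 was higher and 1 lower at 7 d, and none was called at 2 or 4 wk. *Bambi*, a decoy TGF-beta receptor and listed Wnt target, was -2.03 at 3 d relative to uninjured cells (adjusted p = 0.0031), and *Apcdd1*, a surface Wnt inhibitor, -1.19 (adjusted p = 0.00417). *Tle4*, a Groucho family corepressor, was -1.61 at 3 d (adjusted p = 0.00134), and *Tnks*, a tankyrase that promotes Axin turnover, 1.32 (adjusted p = 0.0351). At 7 d *Trabd2b*, a protease that cleaves Wnts, was 1.14 (adjusted p = 0.0261), and *Musk*, the muscle agrin receptor, was at least 1.98-fold lower (adjusted p = 0.029), its 7 d arrays being below background. *Ctnnbip1*, an inhibitor of beta-catenin binding to TCF, was 2.01-fold lower at 4 wk than at 3 d (adjusted p = 0.0042).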

How the data were processed

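RNA of sorted fibroblasts was amplified with the Pico version of a 3' IVT kit and measured on Clariom S Mouse arrays. The authors deposited normalized log2 values per transcript cluster, and per the labels used Affymetrix Expression Console, whose version and summarization are not given in the sources used here. The table had 28846 rows, of which 22142 were transcript clusters and 19527 had 1 symbol in the platform annotation. Rows not mapped to the genome (64) were left out and the brighter row was kept for the 33 genes with several. Groups came from the sample titles. A one-way limma model (limma 3.58.1, R 4.3.3) of all 14 arrays gave an F test and 9 comparisons, with Benjamini-Hochberg adjustment over 19494 genes at 0.05. The fit was tested on simulated data. The small number of arrays limits the precision.

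The members, the wider pathway list and the markers were chosen with earlier results of these data known. Values on every array are given for members called against uninjured cells, or for the brightest of a role with none called, with *Lrp6* and *Fzd8*, and *Dkk2* in part, added after their values were seen. For the wider list, means or differences are given for the 10 called genes with the largest change.

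Samples with the same replicate number deviated together from their group means, with a correlation of 0.373 to 0.632 for number 1 (10 pairs), 0.119 to 0.387 for number 2 (10 pairs) and 0.174 to 0.488 for number 3 (6 pairs), against a median of -0.314 (-0.55 to 0.432) for different numbers. Arrays numbered 2 and 3 also correlated with each other (0.124 to 0.432), so that the check set number 1 apart and did not separate 2 from 3. Deviations from a group mean cancel out within the group, so a shift of number 1 alone makes numbers 2 and 3 deviate together. Every same-number correlation was over 0.1, the rule set for pairing, but the pairs of 2 with 3 met it too. Pairing of numbers 2 and 3 was therefore not shown. A fit with the number as a block is given as an alternative where it changed a call. Other alternatives were array scaling, filters, other priors, a block for *Uty* and *Kdm5d*, the methods' tests and leaving arrays out.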

Additional observations from a re-analysis of the deposited data

Results flagged for a closer look

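For 8 members the difference from uninjured cells had opposite signs at 2 times after MI and was called at 1 or both of them. The limma test between those times also passed. The share of all genes with such a pattern is not given here. The sign was not itself called for *Ryk* at 4 wk (adjusted p = 1), *Ror2* at 7 d (0.512), *Fzd2* at 4 wk (0.207), *Lrp5* at 7 d (0.15), *Dkk3* at 3 d (0.0842), *Fzd7* at 4 wk (0.0536), or *Nkd1* and *Nkd2* at 3 d (0.643 and 0.991). *Fzd2* was 0.77 at 7 d and -0.66 at 3 d relative to uninjured cells, a difference of 1.42 (adjusted p = 0.000875), and it was 0.60 at 4 wk, a difference of 1.26 from 3 d (adjusted p = 0.000647). *Lrp5* was 0.63 at 7 d, 1.05 at 4 wk and -1.17 at 3 d, differing from 3 d by 1.80 (adjusted p = 0.000742) and 2.22 (adjusted p = 3.73e-05). *Dkk3* was 1.54 at 7 d, 2.57 at 4 wk and -0.91 at 3 d, differing from 3 d by 2.45 (adjusted p = 0.000681) and 3.47 (adjusted p = 1.07e-05). *Fzd7* was 1.01 at 4 wk and -1.35 at 3 d, a difference of 2.36 (adjusted p = 2.68e-05). *Ryk* was -0.10 at 4 wk and 0.82 at 3 d, a difference of -0.924 (adjusted p = 0.00619). *Ror2* was -1.60 at 4 wk and 0.53 at 7 d, a difference of -2.13 (adjusted p = 0.0023).

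*Nkd1* was 0.93 at 7 d and -0.23 at 3 d, a difference of 1.16 (adjusted p = 0.0054). *Nkd2* was 3.79 at 7 d, 3.28 at 4 wk and -0.02 at 3 d, differing from 3 d by 3.81 (adjusted p = 0.000154) and 3.29 (adjusted p = 9.73e-05).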

How the results depend on the processing

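None of the 62 called member values changed sign in any of the 24 settings run. The background filter, other priors, fits of the compared groups only and the methods' tests leave the difference itself unchanged, so they could not change a sign. Leaving out 1 array moves only the comparisons that include its group. The replicate block kept all 62 calls and lost none. It moved the counts of called members to 11 at 3 d (19.1% of all genes) and to 5 for 4 wk against 7 d (7.99% of all genes). Calls it added that are not given with the results were *Fzd1*, *Fzd5*, *Dkk2*, *Tcf7l1* and *Tcf7l2* by the F test, *Dkk2* for 7 d against 3 d, and *Dkk2* and *Tcf7l1* for 4 wk against 3 d, and it changed no other call. Leaving out the arrays numbered 1 gave 13 at 3 d (17.2% of all genes) and 5 at 4 wk (2.47% of all genes), and lost 9 of the 62 calls. A block for the arrays low in *Uty* and *Kdm5d*, which include both 2 wk arrays, gave 1 at 2 wk (*Sfrp2*, adjusted p = 0.0069) and 4 at 4 wk. It lost 21 calls, and called 0.544% of all genes at 2 wk and 1.31% at 4 wk. Fitting only the arrays of the groups compared gave 6 at 7 d (5.25% of all genes) and 3 at 4 wk (1.02% of all genes). The methods' t-test after Benjamini-Hochberg adjustment called 0, 1, 0 and 0 members at 3 d, 7 d, 2 wk and 4 wk, 0 for 7 d against 3 d, 0 for 4 wk against 7 d and 3 for 4 wk against 3 d. In the same order it called 2.1%, 0.677%, 0%, 0.0205%, 0.0256%, 0.0769% and 2% of all genes. At an unadjusted p under 0.05 the methods' t-test called 17 at 2 wk, 9 for 2 wk against 7 d, 3 for 4 wk against 2 wk and 7 for 4 wk against 7 d. In the same order it called 8.62%, 9.79%, 5.26% and 11.4% of all genes. The cause of these shifts was not tested.

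Leaving out 1 array at a time gave 13 to 16 members by the F test, 3 to 10 at 3 d, 6 to 11 at 7 d, 5 to 10 at 2 wk, 3 to 9 at 4 wk, 7 to 11 for 7 d against 3 d, 3 to 5 for 4 wk against 7 d, 10 to 11 for 4 wk against 3 d, and 0 in each fit for 2 wk against 7 d and 4 wk against 2 wk. The shares of all genes in these fits are not given here, so the ranges cannot be set against them. Where leaving out an array left 1 array at 2 wk, its spread was taken from the other groups. Median centring and quantile normalization moved the median of all genes by less than 0.1. The 15 members near background could not show a change below it.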
